A study of Mus musculus with 11 samples.

Results

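The 10 genes described here mark the muscle and pericyte layer of brain vessels. They are a list of named marker genes. The rule uses no measured value, but earlier results of these data were known when the list was made. Acta2, Tagln, Myh11, Des, Myl9 and Cnn1 are 6 contractile genes, and Pdgfrb, Rgs5, Vtn and Kcnj8 are 4 pericyte genes. All 10 were found among the 20957 genes of the deposited expression table, and all 10 passed the filter on low values.

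Gene expression was measured by RNA-seq in small punched pieces of striatum from BACHD mice. These mice carry, beside their own Htt gene, a full-length human mutant huntingtin transgene on a bacterial artificial chromosome, and the DMSO controls carry it as well. They received SPI-77 (3 libraries), SPI-24 (4 libraries) or the DMSO vehicle (4 libraries) by subcutaneous injection on 4 days, and tissue was taken 6 h after the final injection. SPI-77 and SPI-24 are small molecules that inhibit the interaction of the transcription elongation factor Spt5 with RNA polymerase II. The study describes more than 1 dose of each compound, and the labels give neither dose, age nor sex, so the compounds were not compared at known equal doses. The study's methods describe the line as bred on the FVB/N background. The labels name each library a biological replicate.

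Smooth muscle cells wrap arteries and arterioles and set their diameter. They contract when the motor protein smooth muscle myosin pulls on filaments of smooth muscle actin. Pericytes sit on capillaries within the basement membrane, are recruited by the growth factor PDGF-B through the receptor that Pdgfrb encodes, and help to maintain the blood-brain barrier. Contractile genes are known targets of serum response factor (SRF), which binds a short DNA element called the CArG box together with cofactors of the myocardin family. In whole tissue, fewer cells of a type and less RNA per cell cannot be told apart.

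The upstream sequences of the members are shown because CArG boxes near the gene start are the known meeting point of SRF with contractile genes. RefSeq promoters of the build GRCm38.p6 were found for 7 of the 10 members, namely Acta2, Des, Myl9, Cnn1, Rgs5, Vtn and Kcnj8. In the 250 bases before the gene start, 3 of the 7 held a CArG box, exact or with 1 mismatch. Of all 32851 promoters in the reference table, 1.47% held an exact CArG box and 18.6% held one with at most 1 mismatch. The box is CC and GG around a run of A or T bases and reads as a CArG box on both strands. The matches overlapped no other motif that was searched. In the stretches of Acta2, Myl9 and Kcnj8 printed here, capitals mark the CArG box.
Acta2, chr19:34255438-34255467, minus strand: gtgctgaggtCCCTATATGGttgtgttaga
Acta2, chr19:34255388-34255417, minus strand: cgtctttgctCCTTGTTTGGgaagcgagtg
Kcnj8, chr6:142571641-142571670, minus strand: gagcagcgagCCTTTTAAAGatgtgtgtgc
Myl9, chr2:156775214-156775419, plus strand: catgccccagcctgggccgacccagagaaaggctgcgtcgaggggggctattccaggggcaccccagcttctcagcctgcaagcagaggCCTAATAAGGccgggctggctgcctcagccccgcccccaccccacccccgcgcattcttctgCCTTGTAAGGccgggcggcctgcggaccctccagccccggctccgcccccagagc

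Both boxes of Acta2 had 1 mismatch and lay 75 to 84 and 25 to 34 bases before the gene start. A transcript of Acta2 in the GENCODE annotation starts further upstream, so in that transcript these stretches lie in the first exon. Myl9 had an exact box 152 to 161 bases and a box with 1 mismatch 90 to 99 bases before the start. The box of Kcnj8, a pericyte gene, had 1 mismatch and lay 37 to 46 bases before the start. Des, Cnn1, Rgs5 and Vtn had no CArG box in the window.

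Other letters were searched on both strands as well. The MCAT element CATTCCT, a binding element of TEAD factors, occurred in 4.51% of all promoters and in 1 member, Acta2, on the minus strand. Its stretch is printed with the reverse complement of the element in capitals. TATAAA occurred in 12.4% of all promoters and in 1 member, Vtn, where a match on each strand overlapped the other. For a pericyte gene without any of these motifs, the whole Rgs5 window is printed without capitals.
Acta2, chr19:34255502-34255531, minus strand: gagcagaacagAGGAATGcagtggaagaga
Rgs5, chr1:169655251-169655500, plus strand: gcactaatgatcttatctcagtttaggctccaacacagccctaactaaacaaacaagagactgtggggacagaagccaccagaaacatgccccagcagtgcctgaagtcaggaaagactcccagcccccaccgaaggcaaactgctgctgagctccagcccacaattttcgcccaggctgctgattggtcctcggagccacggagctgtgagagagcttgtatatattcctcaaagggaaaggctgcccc

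The depth of the libraries was from 10.2 M reads in SPI-77 3 to 33.8 M reads in DMSO 4. When all were thinned to 10 M reads, SPI-24 4 kept 16133 genes and SPI-77 3 kept 17923, whereas the other 9 libraries kept 19057 to 19751. By Xist and Ddx3y, all 3 SPI-77 libraries, SPI-24 3, DMSO 2 and DMSO 4 came from males, and the other 5 libraries from females. Markers of medium spiny neurons, the main neurons of the striatum, varied widely between the pieces. The summed normalized count of 12 such genes was 7123 to 10546 in SPI-77, 6105 to 88308 in SPI-24 and 27672 to 101910 in DMSO libraries. These values stand again beside the results they touch.

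Levels were compared between genes as normalized counts per kb of exon. Vtn, which encodes the adhesion protein vitronectin made by brain pericytes, was the highest of the 10 genes in each group, with a mean of 1477 per kb in SPI-77, 917 in SPI-24 and 839 in DMSO libraries. Myl9, the regulatory light chain of smooth muscle myosin, was next with 875, 472.5 and 398 per kb in SPI-77, SPI-24 and DMSO libraries. Cnn1, which encodes the actin-binding protein calponin, was the lowest with 9.62, 4.02 and 3.30 per kb in SPI-77, SPI-24 and DMSO libraries. The members thus spanned a wide range of levels, with contractile and pericyte genes mixed in the order.

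In SPI-77 libraries the order was Vtn, Myl9, Acta2, Rgs5, Pdgfrb, Myh11, Des, Tagln, Kcnj8, Cnn1. The ranges of Acta2 and Rgs5, of Des and Tagln, and of Kcnj8 and Cnn1 overlapped. In SPI-24 libraries Rgs5, at 320 per kb, preceded Acta2, at 212 per kb, and their ranges did not overlap. There the neighbours Myh11, Tagln and Des overlapped. In DMSO libraries the order was Vtn, Myl9, Rgs5, Acta2, Pdgfrb, Myh11, Des, Kcnj8, Tagln, Cnn1, and Acta2, at 122 per kb, overlapped with Pdgfrb, at 106 per kb. Myl9 and Rgs5 overlapped there as well, as did each pair of neighbours between Myh11 and Tagln. Precision was lowest for Cnn1, with 0 to 39 reads per library, Kcnj8, with 19 to 107, and Tagln, with 20 to 201, whereas Vtn had 1613 to 2720 reads.

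**Figure D1:**
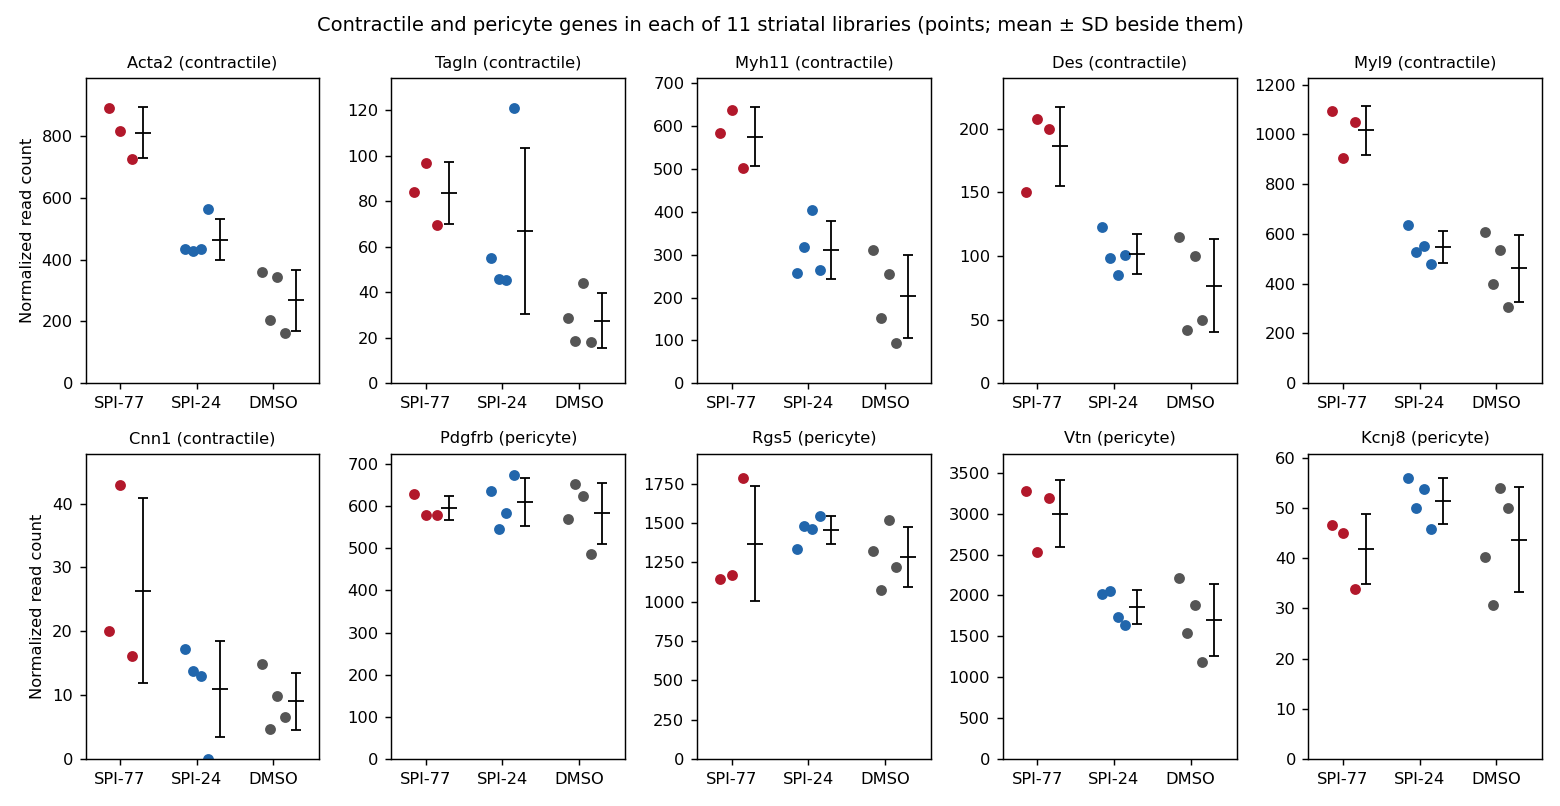
Normalized read count (vertical axes, from 0) of the 10 genes in each library, with SPI-77, SPI-24 and DMSO from left to right. Points are libraries and the bars beside them give mean ± SD. All SPI-77 points of the 6 contractile genes and of Vtn lie above all DMSO points, whereas those of Pdgfrb, Rgs5 and Kcnj8 overlap with DMSO.

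The first comparison was that of SPI-77 with the vehicle. With SPI-77, 5 of the 6 contractile genes and 1 of the 4 pericyte genes rose, and none of the 10 fell, at an adjusted p below 0.05 over all 16768 genes tested with limma. All 5 contractile genes rose by more than 2-fold. Over all genes, 8.03% were called higher and 9.14% lower, and 1.12% were called higher by at least 2-fold. The median log2 fold change was 1.53 over the 6 contractile genes and 0.06 over the 4 pericyte genes, beside -0.01 over all genes tested. edgeR and DESeq2 on the recovered reads also called 6 members higher each, where 7.19% and 11.2% of all genes were called higher.

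Acta2 encodes smooth muscle actin, the thin filament of the contractile apparatus (chromosome 19, 34241090 to 34255590). It had 891, 819 and 725 normalized counts in the SPI-77 libraries, 434.5, 429, 434 and 564 in the SPI-24 libraries and 361, 206, 344 and 164 in the DMSO libraries. The 3 groups did not overlap, with SPI-24 between the other two. With SPI-77 it averaged 811 ± 83.4 (SD, n = 3) against 269 ± 98.4 with DMSO (SD, n = 4), a log2 fold change of 1.66 ± 0.25 (SE), which is 3.17-fold (adjusted p = 0.0179, limma).

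Myh11 encodes the smooth muscle myosin heavy chain, the motor of contraction (chromosome 16, 14194535 to 14291372). Its normalized counts were 585, 638 and 502 in the SPI-77 libraries, 258, 317, 405 and 264 in the SPI-24 libraries and 310.2, 152, 255 and 94.98 in the DMSO libraries. Every SPI-77 library lay above every other library, whereas SPI-24 and DMSO overlapped. Against DMSO the log2 fold change with SPI-77 was 1.63 ± 0.34 (SE), or 3.10-fold (adjusted p = 0.0179, limma).

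Myl9 (chromosome 2, 156775420 to 156781658) carries the site on the myosin light chain whose phosphorylation starts contraction. It had 1095, 905 and 1049.6 normalized counts in the SPI-77 libraries, 635, 528, 553 and 481 in the SPI-24 libraries and 608, 399.6, 535 and 307 in the DMSO libraries. The SPI-77 libraries stood apart and the other groups overlapped. It rose with SPI-77 by 1.18 ± 0.21 (SE) on the log2 scale, or 2.26-fold (adjusted p = 0.0179, limma).

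Tagln encodes SM22, an actin-binding protein of smooth muscle (chromosome 9, 45929619 to 45936058). It had 83.9, 96.8 and 69.6 normalized counts in the SPI-77 libraries, 55.0, 45.7, 45.2 and 121 in the SPI-24 libraries and 28.7, 18.5, 44.1 and 18.25 in the DMSO libraries. All SPI-77 and all SPI-24 libraries lay above all DMSO libraries, and the highest value was that of SPI-24 4. With SPI-77 the log2 fold change was 1.65 ± 0.42 (SE), or 3.14-fold (adjusted p = 0.0249, limma). Exons of the antisense gene Gm48529 share 62.4% of the exon bases of Tagln, and the strand setting of the counting is not stated. Gm48529 itself averaged 16.0 ± 4.65 in SPI-77 (SD, n = 3) and 18.9 ± 6.94 in DMSO libraries (SD, n = 4).

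Des encodes desmin, the intermediate filament of muscle cells and of many mural cells (chromosome 1, 75360329 to 75368579). Its normalized counts were 151, 208 and 199.9 in the SPI-77 libraries, 123, 98.3, 85.1 and 101 in the SPI-24 libraries and 115, 41.7, 100.4 and 49.6 in the DMSO libraries. SPI-77 stood above the other groups, which overlapped. It rose with SPI-77 by 1.38 ± 0.34 (SE) on the log2 scale, or 2.61-fold (adjusted p = 0.0236, limma).

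Cnn1 (chromosome 9, 22099216 to 22109630) did not pass the test. It had 19.98, 42.9 and 16.1 normalized counts in the SPI-77 libraries, 17.25, 13.8, 12.9 and 0 in the SPI-24 libraries and 14.9, 4.64, 9.93 and 6.55 in the DMSO libraries. The SPI-77 and DMSO libraries did not overlap, but the log2 fold change of 1.43 ± 0.94 (SE) had a 95% interval from -0.59 to 3.46 (adjusted p = 0.292, limma). The count of 0 in SPI-24 4 allows a level of up to 1.81 normalized counts, the worth of 3 reads.

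Vtn was the pericyte gene that rose with SPI-77 (chromosome 11, 78499091 to 78502324). It had 3273, 2529 and 3195 normalized counts in the SPI-77 libraries, 2019, 2053, 1737 and 1637 in the SPI-24 libraries and 2209.5, 1536, 1885 and 1186 in the DMSO libraries. Every SPI-77 library lay above every other library. Its log2 fold change with SPI-77 was 0.84 ± 0.19 (SE), or 1.795-fold (adjusted p = 0.0197, limma).

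Pdgfrb, the PDGF-B receptor listed here with the pericyte genes (chromosome 18, 61045150 to 61085061), had 629, 579.8 and 578 normalized counts in the SPI-77 libraries. It had 636, 546, 583 and 673 in the SPI-24 libraries and 569.9, 652, 623 and 486 in the DMSO libraries. All libraries lay between 486 and 673, and the groups overlapped. The log2 fold change with SPI-77 was 0.04 with a 95% interval from -0.26 to 0.34 (adjusted p = 0.868, limma). The interval lies below the changes of Acta2, Myh11, Myl9, Tagln, Des and Vtn.

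Rgs5, a regulator of G-protein signalling and one of the most abundant pericyte transcripts (chromosome 1, 169655501 to 169695813), had 1147, 1169 and 1790.4 normalized counts in the SPI-77 libraries, 1336, 1479, 1462 and 1547 in the SPI-24 libraries and 1320.2, 1076, 1523 and 1221 in the DMSO libraries. SPI-77 3 stood above the other SPI-77 libraries. The log2 fold change with SPI-77 was 0.07 with a 95% interval from -0.29 to 0.43 (adjusted p = 0.796, limma), and it was -0.14 without SPI-77 3 and -0.01 without DMSO 2.

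Kcnj8, the potassium channel subunit Kir6.1 of pericytes (chromosome 6, 142564837 to 142571614), had 46.6, 45.1 and 33.9 normalized counts in the SPI-77 libraries, 56.06, 50, 53.85 and 45.75 in the SPI-24 libraries and 40.2, 30.6, 54.05 and 50.1 in the DMSO libraries. The groups overlapped. The log2 fold change with SPI-77 was -0.04 with a 95% interval from -0.71 to 0.62 (adjusted p = 0.938, limma).

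All SPI-77 libraries lay above all DMSO libraries for 7 of the 10 members, and for 17.2% of all genes tested. The calls rested on few libraries. Without SPI-77 1, SPI-77 3, DMSO 2 or DMSO 4 in turn, limma called 0 of the members and 0 of all genes, and the adjusted p of the 6 members reached at most 0.0933 over all leave-one-out fits. Every call named below for SPI-77 against DMSO was lost with them. Without SPI-77 2, Tagln and Des were lost and 4 members were called. The sizes of the differences moved less. With 1 library left out, the log2 fold change was 1.45 to 1.83 for Acta2, 1.32 to 1.88 for Myh11, 0.999 to 1.33 for Myl9 and 0.68 to 0.98 for Vtn.

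**Figure D2:**
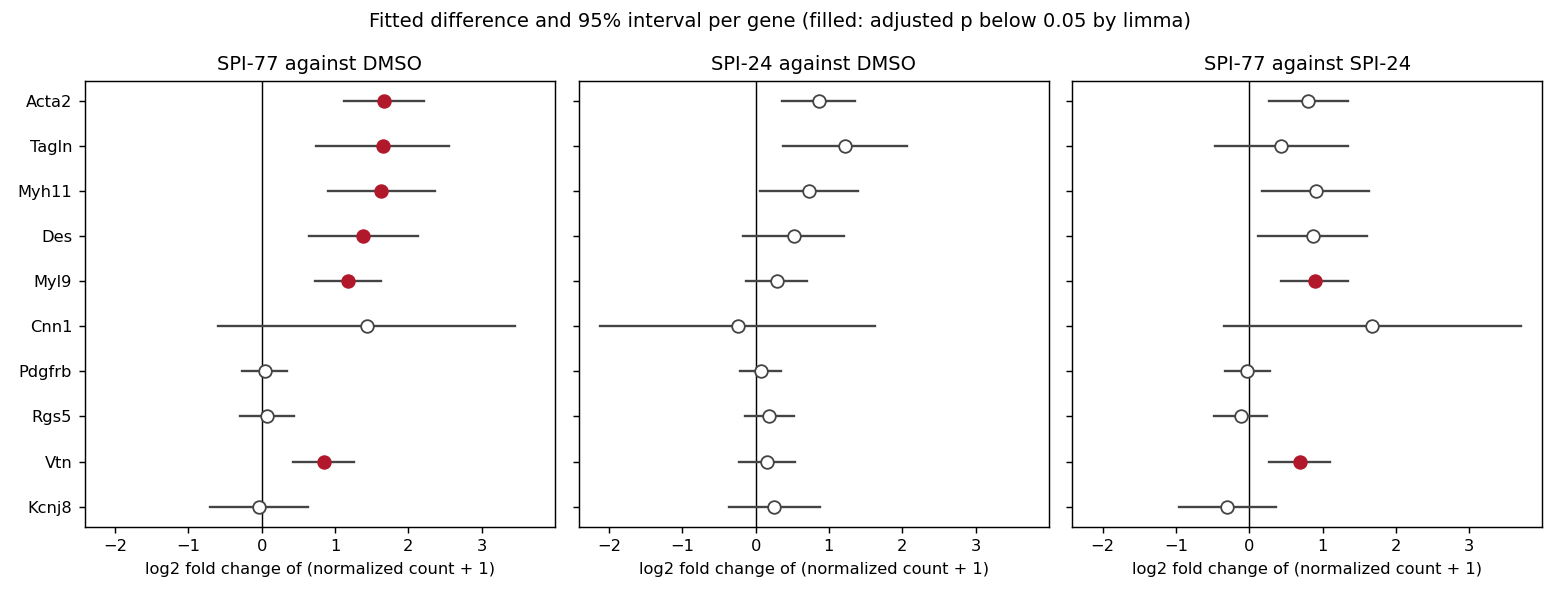
Fitted log2 fold change of (normalized count + 1) with its 95% interval (horizontal axes) for each of the 10 genes (rows) in the 3 comparisons, one panel each. Filled points passed an adjusted p below 0.05 by limma, which were 6 genes for SPI-77 against DMSO, 0 for SPI-24 against DMSO and 2 for SPI-77 against SPI-24.

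The second comparison was that of SPI-24 with the vehicle. With SPI-24, 0 of the 10 members passed the test, and 0% of all genes did, with limma, edgeR and DESeq2 alike. At an unadjusted p below 0.05, limma had 3 of the 10 members, namely Acta2, Tagln and Myh11, where 625 of all genes (3.73%) had such a p. edgeR had 539 genes (3.24%) and DESeq2 834 (4.01%) at that limit. The median log2 fold change was 0.63 over the contractile genes and 0.17 over the pericyte genes, beside -0.02 over all genes.

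Acta2 averaged 465 ± 65.8 with SPI-24 and 269 ± 98.4 with DMSO (SD, n = 4 each), a log2 fold change of 0.86 with a 95% interval from 0.35 to 1.36 (adjusted p = 0.9751, limma). Tagln averaged 66.7 ± 36.5 with SPI-24 and 27.4 ± 12.2 with DMSO (SD, n = 4 each), a log2 fold change of 1.22 ± 0.39 (SE, adjusted p = 0.9751, limma), and 0.89 without SPI-24 4. For these 2 genes all SPI-24 libraries lay above all DMSO libraries, which held for 0.99% of all genes. Myh11 differed by 0.73 ± 0.31 (SE) and was 0.41 without DMSO 4, Des by 0.52 ± 0.32 (SE), and Myl9 by 0.29 ± 0.19 (SE).

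Cnn1 differed by -0.25 ± 0.87 (SE), and without SPI-24 4, where no read was found, the value was 0.74. Among the pericyte genes, the log2 difference between SPI-24 and DMSO was 0.07 for Pdgfrb (95% interval from -0.21 to 0.35), 0.19 for Rgs5 (from -0.15 to 0.53), 0.16 for Vtn (from -0.22 to 0.54) and 0.26 for Kcnj8 (from -0.36 to 0.87). None of these intervals excluded 0. Both comparisons share the DMSO libraries.

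The compounds were then set against each other, with doses that are not in the labels. Myl9 and Vtn, 2 of the 10 members, were higher with SPI-77 than with SPI-24, where 3.05% of all genes were called higher. None of the members passed the 2-fold limit, which 0.34% of all genes passed. Myl9 differed by 0.89 ± 0.21 (SE) on the log2 scale (adjusted p = 0.0391, limma) and Vtn by 0.68 ± 0.19 (SE, adjusted p = 0.0494, limma). edgeR called 1 member and DESeq2 called 4, where 2.61% and 6.92% of all genes were called higher.

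The other contractile genes did not pass. Acta2 differed by 0.81 (95% interval from 0.26 to 1.35, adjusted p = 0.0632, limma), Myh11 by 0.90 (from 0.17 to 1.63) and Des by 0.86 (from 0.12 to 1.60). Their intervals lay above 0 before adjustment. Tagln differed by 0.43 (from -0.48 to 1.34) and Cnn1 by 1.68 (from -0.35 to 3.70). Without SPI-24 4, where Cnn1 was at 0, the value of Cnn1 was 0.69. Pdgfrb differed by -0.03 (from -0.33 to 0.27), Rgs5 by -0.12 (from -0.48 to 0.24) and Kcnj8 by -0.30 (from -0.97 to 0.37). All SPI-77 libraries lay above all SPI-24 libraries for 5 of the 10 members and for 16.1% of all genes. The 2 calls were both lost when SPI-77 1, SPI-77 2, SPI-77 3, SPI-24 2, SPI-24 3, SPI-24 4 or DMSO 3 was left out, and 1 to 4 members were called without another library.

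Medium spiny levels moved with SPI-77, and their part in the results was not tested. Of 12 medium spiny genes, 6 fell with SPI-77 against DMSO (median log2 fold change -3.09), beside 9.14% of all genes called lower. All 12 had an unadjusted p below 0.05 with limma, and edgeR called 8 and DESeq2 12 of them lower. Among them were Pde10a, a phosphodiesterase of these neurons (-3.74 ± 0.84 SE, adjusted p = 0.0214, limma), and Drd1, the dopamine D1 receptor, with 48.6 ± 26.3 in SPI-77 (SD, n = 3) and 881 ± 613 in DMSO libraries (SD, n = 4). No medium spiny gene passed for SPI-24 (median -1.88). Of 12 thalamic genes, Gbx2 and Calb2 rose with SPI-77 (median of the list 0.81), beside 8.03% of all genes called higher, and edgeR and DESeq2 called 1 each. No thalamic gene passed for SPI-24, but the median was larger (1.24). All 12 thalamic genes were above 0 in both comparisons with DMSO. At an unadjusted p below 0.05, limma had 3 of them for SPI-77 and 5 for SPI-24.

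Pieces with few medium spiny transcripts occurred with both compounds. SPI-24 2 and SPI-24 3 had summed medium spiny counts of 6478 and 6105, as low as the SPI-77 libraries at 7123, 10546 and 8838. The 6 contractile genes summed to 1432 and 1535 in these SPI-24 libraries, against 2825, 2710 and 2562 in the SPI-77 libraries. SPI-24 4, with a medium spiny sum of 88308, had a contractile sum of 1531. Sums are carried by the abundant genes. The mean log2 level of the 6 contractile genes was 7.86, 8.10 and 7.73 in the SPI-77 libraries, 7.17, 7.03, 7.05 and 6.62 in the SPI-24 libraries and 6.96, 5.97, 6.85 and 5.84 in the DMSO libraries. It was lowest among the SPI-24 libraries in SPI-24 4, where Cnn1 was at 0. In DMSO libraries, DMSO 2 and DMSO 4 had medium spiny sums of 101910 and 63752 and contractile sums of 822 and 641, and DMSO 1 and DMSO 3 had medium spiny sums of 27672 and 37445 and contractile sums of 1437 and 1288.

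**Figure D3:**
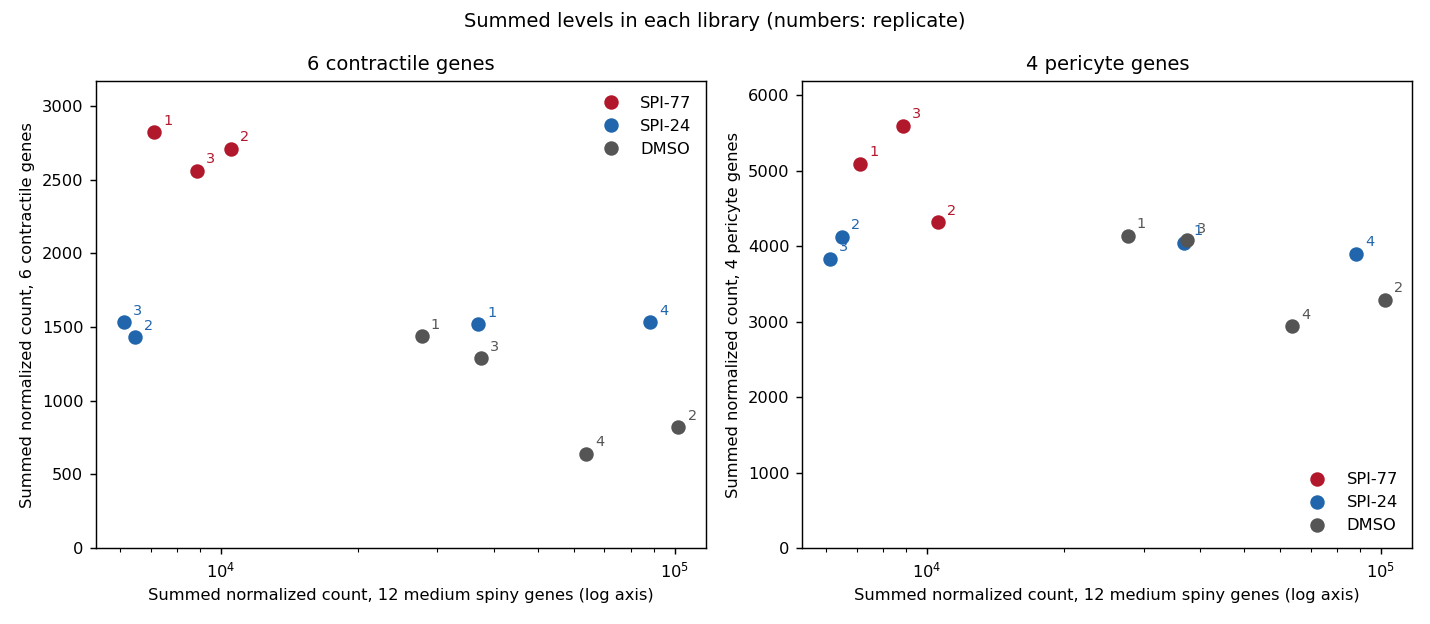
Summed normalized count of the 6 contractile genes (left) and of the 4 pericyte genes (right) in each library against that of 12 medium spiny genes (log axis). Numbers beside points are replicates. Contractile sums were 2562 to 2825 in SPI-77, 1432 to 1535 in SPI-24 and 641 to 1437 in DMSO libraries, and the DMSO libraries with the higher medium spiny sums had the lower contractile sums.

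DMSO 2 and DMSO 4, the 2 male DMSO libraries, were the 2 lowest DMSO libraries for 8 of the 10 members and for 24.5% of all genes. Within males, the 3 SPI-77 libraries differed from these 2 DMSO libraries by 2.13 for Acta2, 2.24 for Myh11, 1.53 for Myl9 and 1.14 for Vtn in mean log2 level, and by 0.08 for Pdgfrb. No female received SPI-77 in these libraries. Among females, the 3 SPI-24 libraries, SPI-24 4 among them, differed from the 2 DMSO libraries by 0.42 for Acta2 and 0.90 for Tagln. The difference was -0.01 for Myh11, -0.07 for Myl9, -0.11 for Vtn and -1.03 for Cnn1. Among females, 5 of the 10 members were above 0. Among males, SPI-24 had only 1 library, SPI-24 3, and all 10 members were above 0 against the 2 male DMSO libraries. The difference there was 1.235 for Acta2, 1.25 for Tagln, 1.74 for Myh11, 0.66 for Myl9, 0.36 for Vtn and 1.09 for Cnn1. The 2 sexes thus differed for SPI-24, and the share of all genes above 0 within each sex is not given here. With sex as a term in the fit, 6 members were called for SPI-77 against DMSO, all by at least 2-fold, and 4 members for SPI-77 against SPI-24. Calls rose over all genes too. For SPI-77 against DMSO that fit called 3499 genes (1544 by 2-fold), against 2879 (1073) without the term. For SPI-77 against SPI-24 it called 2050, against 1175. As no SPI-77 library was female, the term rests on the SPI-24 and DMSO libraries.

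The recovered reads show the split between contractile and pericyte genes within each library. The contractile genes took 158 ± 15.4 reads per M reads in SPI-77 (SD, n = 3), 95.5 ± 2.75 in SPI-24 (SD, n = 4) and 67.0 ± 23.7 in DMSO libraries (SD, n = 4). The pericyte genes took 292 ± 27.1, 252 ± 9.35 and 232 ± 37.7 reads per M reads in SPI-77, SPI-24 and DMSO libraries. The ratio of Acta2 to Pdgfrb, which does not depend on the scaling of a library, was 1.42, 1.41 and 1.25 in SPI-77, 0.683, 0.787, 0.745 and 0.838 in SPI-24, and 0.633, 0.316, 0.552 and 0.338 in DMSO libraries. The groups did not overlap in this ratio. The ratio of Myh11 to Acta2 was 0.709 ± 0.0635 in SPI-77, 0.683 ± 0.200 in SPI-24 and 0.729 ± 0.116 in DMSO libraries, and these ranges overlapped.

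Across the 11 libraries, which share their groups and the scaling of each library, the log2 levels of contractile genes went together. Pearson's r had a median of 0.79 over the 15 pairs of contractile genes and of 0.54 after the group means were removed. The pairs ran from 0.02 for Tagln with Cnn1 to 0.94 for Acta2 with Myh11, and from -0.46 to 0.81 after the group means were removed. No value over all gene pairs is given here for comparison. Pericyte genes had a median of 0.06 over 6 pairs. Vtn had r = 0.98 with Myl9, 0.88 with Myh11, 0.87 with Des, 0.86 with Acta2, 0.60 with Tagln and 0.58 with Cnn1. After group means were removed, these values were 0.94, 0.72, 0.65, 0.68, 0.16 and 0.36. With Pdgfrb, Vtn had r = 0.21. Cnn1 went with the others less closely (r = 0.34 with Acta2), and its value of 0 in SPI-24 4 enters here.

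Of 12701 other genes with a mean of at least 50, those closest to the mean contractile profile over the 11 libraries were Tmem208, Mt2, Poll, Lcat, Pick1 and Urod, with r between 0.97 and 0.98. Mt2, a metallothionein, averaged 4190 ± 499 in SPI-77 (SD, n = 3), 2467 ± 259 in SPI-24 (SD, n = 4) and 1838 ± 507 in DMSO libraries (SD, n = 4). Lcat, an enzyme that esterifies cholesterol, averaged 1257 ± 157, 589.6 ± 62.6 and 459 ± 183 in SPI-77, SPI-24 and DMSO libraries. Closest to the mean pericyte profile were Grip2, Lama1, BC024978, Ret, Adcy7 and Tshb, with r between 0.86 and 0.92. Their rank correlations were between 0.45 (Tshb) and 0.80 (Grip2). The pericyte genes did not go together (median r 0.06 over their pairs), so their mean is not a profile that they share.

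Other genes of the contractile apparatus were read from a further list. Of its 20 genes, 19 could be tested. With SPI-77, 1 was higher and 1 lower than with DMSO, beside 8.03% higher and 9.14% lower over all genes. The median log2 fold change was 0.58, and 14 were above 0, as were 49.2% of all genes. edgeR called 1 higher and 2 lower, and DESeq2 called 4 higher and 2 lower. Tpm2, a tropomyosin of muscle thin filaments, rose by 1.19 ± 0.30 (SE, adjusted p = 0.0240, limma), with 1005 ± 308 in SPI-77 (SD, n = 3) and 459 ± 192 in DMSO libraries (SD, n = 4). Vcl, which encodes vinculin of cell adhesions, fell by 1.32 on the log2 scale (SE 0.38, adjusted p = 0.0363, limma). Mylk, the kinase that phosphorylates the light chain, had 0.38 ± 0.28 (SE), and Lmod1, an actin nucleator of smooth muscle, had 1.36 ± 0.59 (SE), without passing.

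Among 20 further genes of pericytes, 2 were higher with SPI-77 than with DMSO and none was lower (median 0.24), beside 8.03% higher and 9.14% lower over all genes. edgeR called 2 of the 20 higher and DESeq2 called 4. Cox4i2, a cytochrome c oxidase subunit, rose by 1.301 ± 0.34 (SE, adjusted p = 0.0256, limma) and Ifitm1, an interferon-induced membrane protein, by 1.12 ± 0.34 (SE, adjusted p = 0.0390, limma). Abcc9, the partner of the channel subunit that Kcnj8 encodes, had -0.60 ± 0.31 (SE), and Cspg4, the proteoglycan NG2, had 0.27 ± 0.18 (SE).

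The regulators of the contractile genes were read next. Of 9 genes of SRF and its partners, 0 were higher and 2 lower with SPI-77 than with DMSO by limma, beside 8.03% higher and 9.14% lower over all genes, 2 had an unadjusted p below 0.05, and edgeR and DESeq2 called 0 higher as well. Mkl2, a cofactor of SRF, fell by 1.13 (SE 0.25, adjusted p = 0.0188, limma) and Tead1, a factor that binds MCAT elements, by 1.05 (SE 0.26, adjusted p = 0.0238, limma) on the log2 scale. Mkl2 and Tead1 are also made by other brain cells. Srf itself had -0.25 ± 0.22 (SE) and Mkl1, another SRF cofactor, 0.07 ± 0.20 (SE). Myocd, a further gene of that list, was not found by name in the deposited data.

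Of 16 genes of the PDGF, TGF-beta and Notch pathways and related vessel signals, 2 were higher and 3 lower with SPI-77 than with DMSO (median -0.44). Over all genes, limma called 8.03% higher and 9.14% lower. The ligand genes Pdgfa and Tgfb3 rose by 0.82 ± 0.22 and 0.73 ± 0.19 (SE), and limma gave adjusted p-values of 0.0268 and 0.0262. The receptor genes Pdgfra, Tgfbr1 and Tgfbr2 fell by 0.91, 1.36 and 0.89 on the log2 scale, and limma gave adjusted p-values of 0.0179, 0.0221 and 0.0305. Pdgfra marks oligodendrocyte precursors in the brain. Pdgfb, the ligand that endothelial cells send to Pdgfrb, had 0.30 ± 0.19 (SE) without passing.

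Neighbouring cell types of the vessel wall and its surface were read in the same way. Of 14 endothelial genes, Ly6c1 and Esam were higher and Itm2a was lower with SPI-77 than with DMSO (median 0.14). Over all genes, limma called 8.03% higher and 9.14% lower. The summed endothelial level was 7784 to 9063 in SPI-77, 6367 to 7595 in SPI-24 and 5766 to 7780 in DMSO libraries. Of 14 genes of meningeal fibroblasts, 3 were higher by limma and DESeq2 and 2 by edgeR (median 0.63). Over all genes, limma called 8.03%, DESeq2 11.2% and edgeR 7.19% higher. The summed level of the meningeal fibroblast genes was 2274 to 3219 in SPI-77, 1859 to 2536 in SPI-24 and 1149 to 2308 in DMSO libraries. Slc6a13, a GABA and taurine transporter of these cells, averaged 335 ± 86.0 in SPI-77 (SD, n = 3), 202 ± 10.1 in SPI-24 (SD, n = 4) and 92.5 ± 52.8 in DMSO libraries (SD, n = 4). Aldh1a2, which makes retinoic acid, and Mgp, the matrix Gla protein also made by smooth muscle, rose as well. For SPI-24 against DMSO, 12 of the 14 meningeal fibroblast genes were above 0 (median 0.33) and none was called. At an unadjusted p below 0.05, limma had 5 of them, beside 3.73% of all genes. The part of larger surface vessels and meninges in the pieces was not tested.

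Blood, skeletal muscle and perivascular macrophage genes gave 0 calls with SPI-77 against DMSO, out of 5 tested in each list, by limma, edgeR and DESeq2. At an unadjusted p below 0.05, limma had 0 blood, 0 skeletal muscle and 2 perivascular macrophage genes. Choroid plexus genes gave 0 calls out of 10 by limma and edgeR and 2 lower by DESeq2, with 3 at an unadjusted p below 0.05 in limma and with summed levels of 32628 to 93842 in SPI-77, 2643 to 135350 in SPI-24 and 73068 to 194600 in DMSO libraries. For SPI-24 against DMSO, none of these lists had a call by limma, where no gene at all was called. At an unadjusted p below 0.05, limma had 6 choroid plexus genes there, with all 10 below 0, and none of the other lists.

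**Figure D4:**
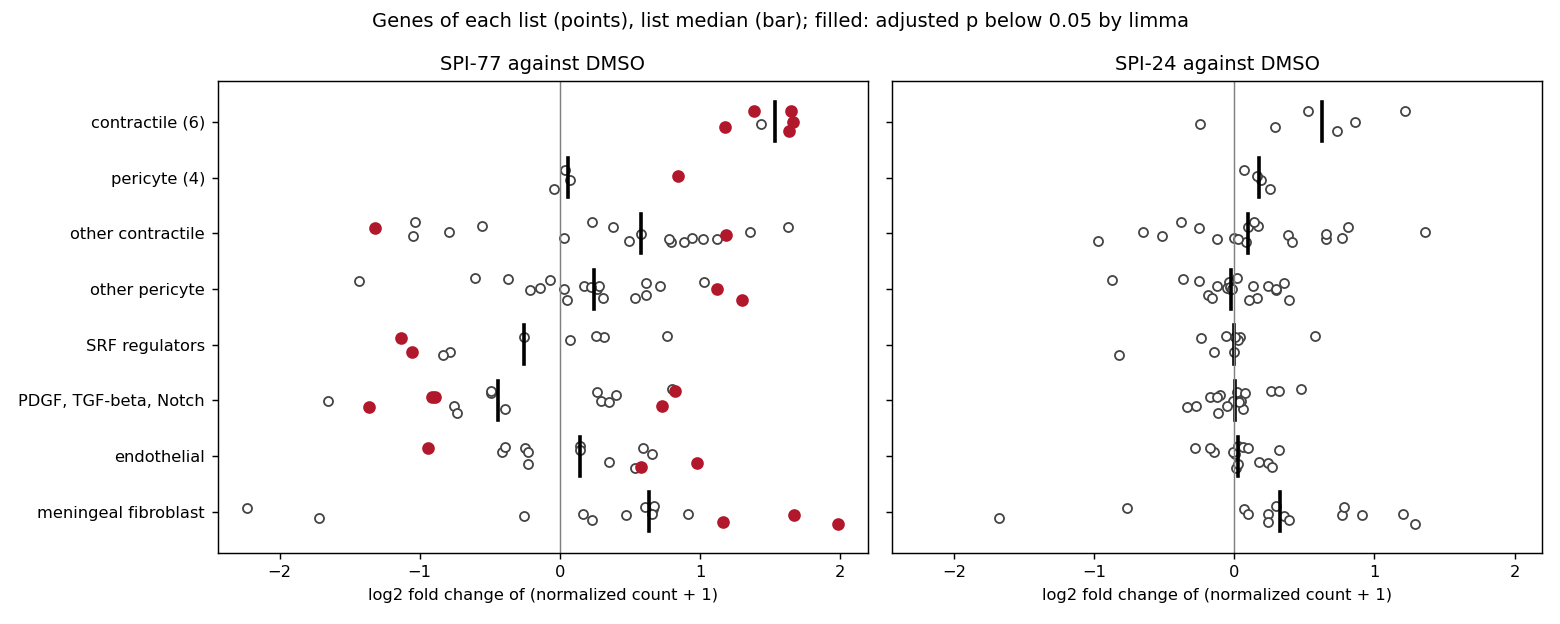
Log2 fold change of (normalized count + 1) of each gene (points, horizontal axes) in 8 lists (rows), for SPI-77 against DMSO (left) and SPI-24 against DMSO (right). Bars are list medians and filled points passed an adjusted p below 0.05 by limma. The 6 contractile genes have a median of 1.53 with SPI-77 and 0.63 with SPI-24, and the list of other contractile genes has 0.58 and 0.10.

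Close relatives of the members that other cells use were read as well. Of 15 such genes tested, 2 were higher and 2 lower with SPI-77 than with DMSO (median 0.04). Over all genes, limma called 8.03% higher and 9.14% lower. Actb, the cytoplasmic actin of most cells, had 0.30 ± 0.16 (SE) and Acta1, the skeletal muscle actin, had -0.22 ± 0.35 (SE), neither of which passed. Myh10, a nonmuscle myosin heavy chain, fell by 0.87 (SE 0.18, adjusted p = 0.0179, limma), and Myl12b, a nonmuscle light chain related to Myl9, rose by 0.58 ± 0.12 (SE, adjusted p = 0.0179, limma). Tagln3, a relative of Tagln in neurons, rose by 0.74 ± 0.18 (SE, adjusted p = 0.0228, limma), and Pdgfra, a relative of Pdgfrb, was the other gene that fell. Stretches of 50 bases in their transcripts were searched for in the transcripts of genes at other places in the genome. By this search 99.67% were unique to Acta2 and 99.66% to Myh11, and 100% to each of the other 8 members. Genes that overlap a member were left out of it. For Tagln these were Gm48529, with 62.4% of its exon bases, and Pcsk7, with 5.43%. For Des this was the antisense gene Gm15179, with 5.86%.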

How the data were processed

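The authors removed adapters and poly-A or poly-T ends with cutadapt, aligned reads with STAR to GRCm38, dropped reads with several positions, counted them with HTSeq and divided the counts by DESeq2 size factors. The sources used here do not give tool versions or the strand setting. The deposited values are thus a normalized count signal, and 100% were whole multiples of the worth of 1 read (within 0.1 of a step), from which reads were recovered. Columns of the authors' fold changes and p-values were not used, and 0 columns belonged to other samples. Of 20957 gene IDs, 20924 (99.8%) matched the annotation, and 24 damaged names were replaced from it.

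Genes with at least 10 normalized counts in at least 3 libraries (16768) were fitted as log2(value + 1) with limma 3.58.1 in R 4.3.3, with trended, robust variance, all 11 libraries and group as the term. Calls used a Benjamini-Hochberg adjusted p below 0.05 over all these genes. Fold changes on this scale can understate those of low genes, but a value of 0 can enlarge them. For Cnn1 in SPI-77 against SPI-24, limma gave 1.68, and edgeR and DESeq2 gave 1.29. edgeR 4.0.16 and DESeq2 1.42.0 on recovered reads were alternatives, as were other pseudocounts, filters, TMM scaling, a sex term, a replicate block and leaving out libraries. The fitting steps were also run on simulated counts with the same relative spread for every gene. That simulation held no differences in sex or tissue make-up, so it does not speak for the spread of these libraries. P-values rest on the spread between libraries of a group, which was wider than counting error.

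The members and lists were chosen with earlier results of these data known. All members are named. Of other lists, genes past the limit against DMSO are named, at most 6 per list, with 1 or 2 that did not pass taken first in list order. Likeness used the 6 highest r per profile. Gm48529 was chosen for its overlap with Tagln. Sequences are from RefSeq (GRCm38.p6), and coordinates are those of GENCODE on GRCm38.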

Additional observations from a re-analysis of the deposited data

Results flagged for a closer look

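In the groups of 4 libraries, the highest and lowest values of the 10 members were read against the other libraries. Of 20 groups, 2 held a value whose gap to its nearest neighbour took a share of the whole range above Dixon's 95% critical value for 4 samples, and chance gives about 1 in 20. Both came from SPI-24 4, the library with the fewest genes detected at equal depth (16133). Acta2 stood at 564.09 normalized counts there, with a gap of 0.961 of the range, and Tagln at 121, with a gap of 0.871. Without SPI-24 4, the log2 fold change of Tagln for SPI-24 against DMSO was 0.89.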

How the results depend on the processing

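For SPI-77 against DMSO, 6 members were called (5 by at least 2-fold). Leaving out 1 library gave 0 to 6 (0 to 5 by 2-fold), and 0 for both without SPI-24 4 and SPI-77 3, a setting chosen after seeing the data, as was leaving out both number 4 libraries, which gave 3 by 2-fold. The other settings kept 6 members within 1.5 times. Over all genes, 2879 were called (1073 by 2-fold), against 1319 (636) without trended and robust variance, 0 to 4831 (0 to 1867) with 1 library out, 1607 (602) with both number 4 libraries out and 0 without the low-detection pair, SPI-24 4 and SPI-77 3. For SPI-77 against SPI-24, 2 members were called, against 1 with a pseudocount of 0.5, without a filter or with edgeR, 4 with DESeq2 or a sex term (3 by 2-fold, against 0), 5 with only those groups fitted, and 0 without trended and robust variance, without the low-detection pair or without both number 4 libraries. Leaving out 1 library gave 0 to 4. Over all genes, 1175 (468 by 2-fold) compare with 2764 (987) by DESeq2, 2050 (1146) with a sex term, 2065 with those groups alone, 0 to 2610 (0 to 804) with 1 library out, and 0 without trended and robust variance, without the low-detection pair or without both number 4 libraries. The cause was not tested. SPI-24 against DMSO kept 0 members in each setting.

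Whether replicate numbers pair the libraries is not known. Correlations between groups were from -0.156 to 0.205 for same-numbered libraries and from -0.211 to 0.150 for differently numbered ones. The highest were those of SPI-24 3 with DMSO 3 (0.205) and of SPI-24 1 with DMSO 1 (0.170). With the replicate block, limma called 6, 0 and 2 members in the 3 comparisons and 2790 genes for SPI-77 against DMSO, and DESeq2 called 6, 0 and 3 members, with 2602 genes for SPI-77 against SPI-24 and 25 genes, none of them a member, for SPI-24 against DMSO.

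Signs turned for 27 of 747 member values, each of them of Cnn1 or close to 0. With 1 library left out, the log2 fold change for SPI-77 against DMSO was -0.045 to 0.096 for Pdgfrb, -0.14 to 0.18 for Rgs5 and -0.20 to 0.099 for Kcnj8. For SPI-24 against DMSO it was -0.65 to 0.74 for Cnn1, -0.016 to 0.13 for Pdgfrb and -0.0023 to 0.30 for Vtn, and for SPI-77 against SPI-24 it was -0.081 to 0.020 for Pdgfrb. Without SPI-24 4 and SPI-77 3, it was -0.14 for Rgs5 and 0.099 for Kcnj8 (SPI-77 against DMSO), 0.74 for Cnn1 (SPI-24 against DMSO) and 0.041 for Pdgfrb (SPI-77 against SPI-24). Without both number 4 libraries, it was -0.045 for Pdgfrb and 0.032 for Kcnj8 (SPI-77 against DMSO), 0.64 for Cnn1 and -0.065 for Pdgfrb (SPI-24 against DMSO) and 0.020 for Pdgfrb (SPI-77 against SPI-24). With a sex term, it was 0.0083 for Kcnj8 (SPI-77 against DMSO), and 0.032 for Pdgfrb and 0.0099 for Rgs5 (SPI-77 against SPI-24). Cnn1 was 0.076 with a pseudocount of 10, 0.26 with edgeR and 0.28 with DESeq2 (SPI-24 against DMSO). Depth limits Cnn1, with at most 39 reads. Protein identity between members was not run.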
